A study of Mus musculus with 2 samples.

Results

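Oxidative phosphorylation was examined through the nuclear genes of respiratory chain complexes I to V, taken as every probe of the deposited value table whose annotated symbol begins with Nduf, Uqcr or Atp5, begins with Cox4, Cox5, Cox6, Cox7 or Cox8, or is one of the succinate dehydrogenase symbols Sdha, Sdhb, Sdhc and Sdhd. The rule reads gene symbols and no measured values. It took 89 of the 11866 probes, which stand for 74 of the 8116 named genes: 38 of complex I, 3 of complex II, 6 of complex III, 12 of complex IV and 15 of complex V. Ndufa4 is named for complex I but is now known as a subunit of complex IV, and it is counted there. The group labelled type 1 invariant NKT cells and the group labelled conventional CD4 T cells were both sorted from mouse lymph nodes, with magnetic beads or by fluorescence, and both are labelled female. RNA of each was read on 1 Illumina bead array, so each group is a single library, called here the NKT-labelled and the CD4-labelled library. No strain, age or number of animals is given for either group in the sources used here, the mice were kept free of specific pathogens, and the labels do not say which sorting method served which group.

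The respiratory chain of the inner mitochondrial membrane passes electrons from NADH (complex I) and succinate (complex II) through ubiquinone, complex III and cytochrome c to oxygen at complex IV. Complexes I, III and IV pump protons, and complex V, the ATP synthase, uses their return to make ATP. Most subunits are encoded in the nucleus and assembled with a few made inside mitochondria. Resting T cells draw most of their ATP from this pathway, and activated T cells add glycolysis to it. Invariant NKT cells recognise lipids presented by CD1d and release cytokines quickly. The comparison of these arrays asks which transcripts differ between the cells.

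The promoters of several members hold motifs of factors that are textbook regulators of respiratory genes, NRF1 and GABP (also called NRF2). Windows from 250 bases before to 50 bases after an annotated start, from RefSeq on GRCm38.p6, were found for 64 of the 74 genes (69 windows). The NRF1 core GCGCATGC, on either strand, was in 14.5% of the members' windows, against 2.71% of all 32851 windows. The GABP core CCGGAAG, on either strand, was in 23.2% of the members' windows and in 8.86% of all windows. The set of all windows covers 27025 genes, measured here or not. No share was taken over the named genes alone. The NRF1 core can overlap its own match on the other strand, and such a window counts once. The 4 stretches that follow are read 5′ to 3′ on the gene's strand, upstream of the annotated start. They come from members that both hold a motif and are 2-fold or more higher in the results that follow. Of the 11 members so much higher, 5 held either motif, and Atp5j among these is not shown. The stretches therefore do not stand for all members with large differences. Capitals mark the motifs. Cox6a1 lies at chr5:115348959-115349150 on the minus strand, Uqcrh at chr4:116075071-116075110 on the minus strand, Ndufb7 at chr8:83566708-83566757 on the plus strand and Atp5l at chr9:44920918-44920992 on the minus strand.
Cox6a1: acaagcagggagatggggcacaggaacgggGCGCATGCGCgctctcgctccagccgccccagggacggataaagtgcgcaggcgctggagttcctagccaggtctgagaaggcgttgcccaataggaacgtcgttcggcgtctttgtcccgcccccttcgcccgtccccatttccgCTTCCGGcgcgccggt
Uqcrh: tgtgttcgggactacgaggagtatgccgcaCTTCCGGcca
Ndufb7: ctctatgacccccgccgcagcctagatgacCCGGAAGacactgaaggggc
Atp5l: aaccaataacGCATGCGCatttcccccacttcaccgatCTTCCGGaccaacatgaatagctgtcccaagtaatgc
In the first stretch an NRF1 core, present on both strands, stands upstream of a GABP core that begins 16 bases before the start. In Atp5l the NRF1 core begins 240 bases and the GABP core 212 bases before the start. Such a match is a description of the sequence, not a bound site.

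The deposited files disagree about the NKT-labelled library. The value column labelled conventional CD4 T kept the probe order of its non-normalized intensities (Spearman's rho 1 across probes), but the value column labelled invariant NKT had a rho of 0.822 with its own intensities and 0.823 with those of the other library. Results below come from the value table, and every direction depends on it and on the labels. All 5 listed invariant NKT genes were 2-fold or more higher in the NKT-labelled library, as were 9.37% of all named genes. Their signals, summed on the linear scale, came to 48398 there and 1480 in the other library. This list, like the other marker lists here, was chosen with earlier results of these data known, so the count does not test the label. The CD4-labelled library goes against its label in part. Cd8b1, a co-receptor chain of CD8 T cells, had log2 signals of 9.33 in the NKT-labelled library and 15.60 in the CD4-labelled library, and Cd4 had 8.997 and 9.61. Itgae, the other CD8 T cell gene looked at, was at least 49.0-fold lower in the NKT-labelled library, where it was not detected. The T cell receptor complex genes Cd3d, Cd3e and Cd3g differed by -0.16 to 0.30. Although both samples are labelled female, 1 of 3 Y-linked genes looked at was detected in the NKT-labelled library and 3 of 3 in the CD4-labelled library. Both naive T cell genes on the table were lower in the NKT-labelled library: Igfbp4 had 8.19 and 13.72, and Ccr7, a lymph node homing receptor, was at least 22.6-fold lower. Markers of other cells also differed. All 3 red cell genes were higher in the NKT-labelled library (summed linear signals of 74606 and 1241), as were the 4 measured hepatocyte genes (9325 and 603, with 0 of 4 detected in the CD4-labelled library). Of 3 monocyte and macrophage genes 2 were higher and 1 lower at their brightest probes. Lyz2, counted as higher, differed by 1.94 at that probe but by -0.52 at its second. The part of these other cells in the results below was not tested. No listed striated muscle gene was analysed here.

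Respiratory chain signals were more often higher than lower in the NKT-labelled library, mostly by less than 2-fold. Of the 70 members detected in 1 or both libraries, 48 (68.6%) had a higher signal there, against 46.1% of the 7278 named genes so detected. The members' median log2 difference (invariant NKT minus conventional CD4 T, as for every difference below) was 0.37, with quartiles of -0.25 and 0.63. Over all named genes the median was -0.07, with quartiles of -0.54 and 0.45. Over genes detected in both libraries it was 0.41 for 64 members and -0.06 for 6017 named genes. Detection means a log2 signal of 7.83 or more, the lowest value with a detection p under 0.01 in the CD4-labelled library. In RNA of a bulk population, a different share of cells of a type and a different amount of RNA per cell cannot be told apart.

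At 2-fold or more, 11 members were higher (15.7%) and 4 were lower (5.71%). For all named genes the shares were 9.37% higher and 10.3% lower. At 1.5-fold, 18 members (25.7%) were higher and 9 (12.9%) lower, against 18.1% and 21.4% of all named genes. With 1 array per group there is no error between replicates and no test. The only yardstick is a pair of probes to the same gene, whose log2 differences varied with a within-gene SD of 0.59 over 1436 genes. Both probes were read on the same arrays, so this SD holds no variation between animals, sorts or arrays. It cannot stand in for replicate error. In the non-normalized intensities no member reached 2-fold, and the members' log2 ratios lay between -0.37 and 0.19. Over all probes of those intensities the log2 ratios had an SD of 0.11. After neqc normalisation of them, 0 of 6767 named genes detected in 1 or both libraries were 2-fold higher and 0 lower. The members' median difference was then 0.0112, against -0.00145 for all genes.

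**Figure D1:**
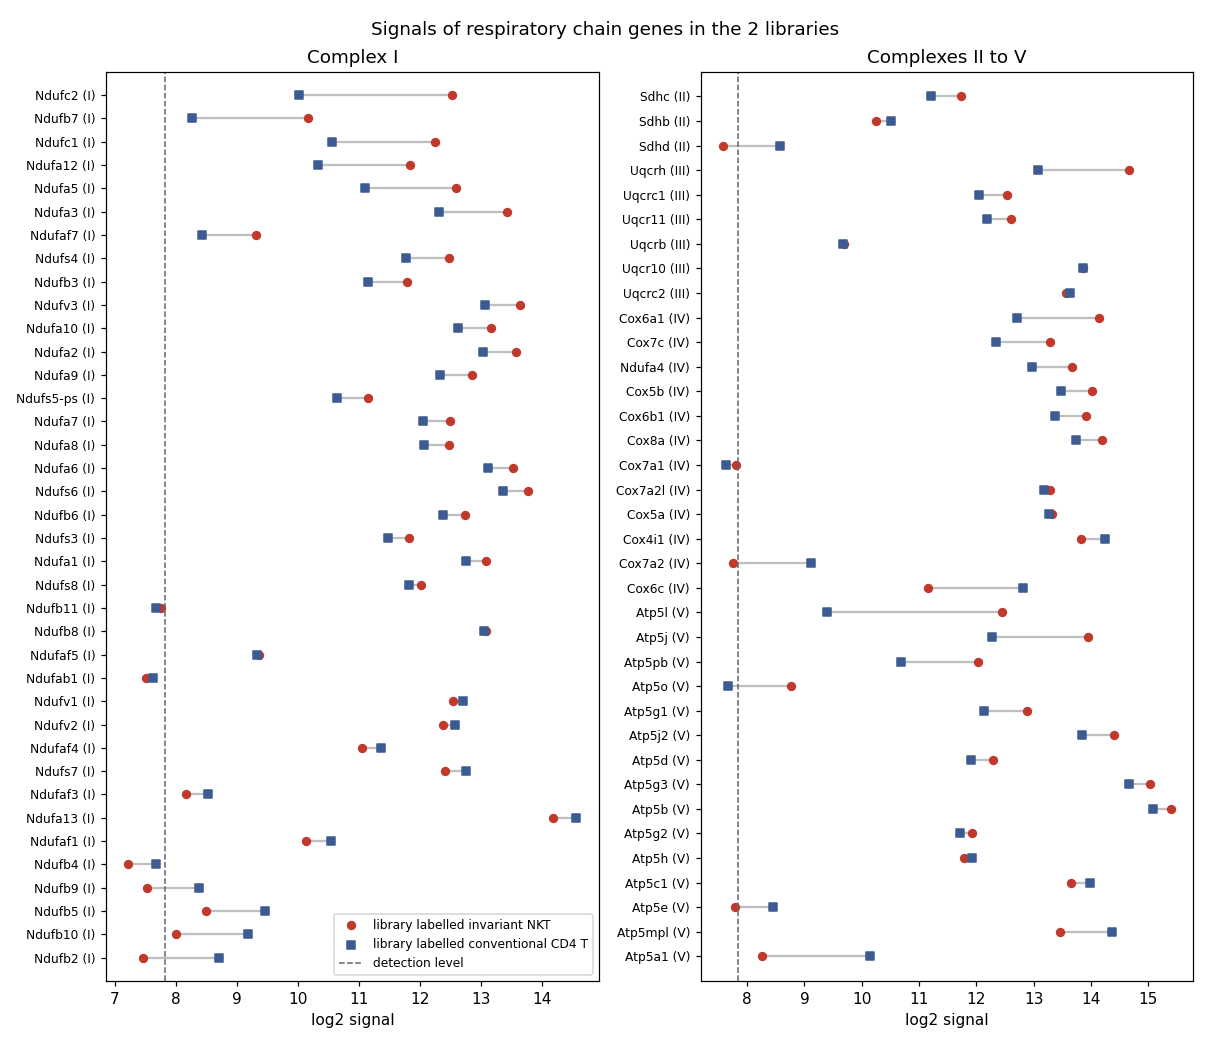
Log2 signal (horizontal axis) of each member, at its brightest probe, in the NKT-labelled library (circles) and the CD4-labelled library (squares), 1 array each, ordered by difference within a complex. The dashed line is the detection level of 7.83. Atp5l, Ndufc2 and Ndufb7 show the widest gaps with the circle to the right, and Atp5a1 and Cox6c with it to the left.

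Complex I, the NADH dehydrogenase, had a median difference of 0.41 over 35 detected genes. Of these, 7 reached 2-fold, 6 higher and 1 lower, where all named genes had 9.37% higher and 10.3% lower. All 7 are accessory subunits, but few core genes were detected: 5, against 11 Ndufa, 10 Ndufb and Ndufc and 4 matrix-arm accessory genes. These counts do not set core and accessory subunits apart. The flavin and the iron-sulphur clusters are held by some of the core subunits. Of the core subunits 5 were measured, all within 2-fold. Ndufv1, which holds the NADH site, had log2 signals of 12.55 in the NKT-labelled library and 12.71 in the CD4-labelled library. Its neighbour Ndufv2 had 12.37 and 12.58. Ndufs7, whose cluster hands electrons to ubiquinone, had 12.41 and 12.76. These 3 were lower in the NKT-labelled library, by differences between -0.35 and -0.16. Ndufs3 (11.82 and 11.48) and Ndufs8 (12.02 and 11.82) were on the other side, at 0.34 and 0.21. The core's median was -0.16.

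Among the 11 detected Ndufa accessory subunits, 10 were higher in the NKT-labelled library, with a median of 0.52. Ndufa12, a subunit of the matrix arm, had log2 signals of 11.84 in the NKT-labelled library and 10.34 in the CD4-labelled library, a difference of 1.51. Ndufa5, also of the matrix arm, had 12.60 and 11.10 at its brightest probe, 2.82-fold higher. A second, dim Ndufa5 probe read 7.42 and 7.89, below the detection level in the NKT-labelled library. Ndufa3, in the membrane arm, had 13.43 and 12.31. The next were far closer together: Ndufa10, Ndufa2, Ndufa9, Ndufa7, Ndufa8, Ndufa6 and Ndufa1 lay between 0.33 and 0.55. The exception was Ndufa13, also known as GRIM-19, with 14.18 in the NKT-labelled library and 14.56 in the other. Ndufab1, the mitochondrial acyl carrier protein, was below the detection level in both.

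The Ndufb and Ndufc subunits of the membrane arm spread widest within complex I, with measured differences from -1.24 to 2.51, around a median of 0.19 over 10 detected genes. For the 8 detected in both libraries the median was 0.50. Ndufc2 had log2 signals of 12.53 in the NKT-labelled library and 10.02 in the CD4-labelled library, 5.68-fold higher. Ndufb7, on the intermembrane space side, had 10.18 and 8.27, 3.76-fold higher, and a log2 difference of 2.90 with background subtracted. Ndufc1 had 12.25 and 10.56 at one probe and 10.35 and 10.88 at the other, so its probes point opposite ways. Ndufb10, the only complex I gene 2-fold lower, had 8.01 in the NKT-labelled library and 9.19 in the CD4-labelled library, a difference of -1.19 that became -2.33 with background subtracted. Ndufb5 was just inside 2-fold, at 8.49 and 9.47. Ndufb2 and Ndufb9 were detected in the CD4-labelled library alone, at 8.71 and 8.38 (7.47 and 7.53 in the other), and were at least 1.84-fold and 1.46-fold lower in the other. Ndufb3 (0.64), Ndufb6 (0.36) and Ndufb8 (0.03) were nearer to equal, and Ndufb4 and Ndufb11 were detected in neither library.

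The accessory Ndufs and Ndufv subunits of the matrix arm held together at their brightest probes, from 0.41 to 0.71. Ndufv3 had 13.64 and 13.07 at its brightest probe and 12.94 and 12.37 at the next, differences of 0.58 and 0.56. Ndufs6 had 13.77 in the NKT-labelled library and 13.36 in the other. Ndufs4, a subunit whose loss causes Leigh-like disease in mice, had 4 probes. The brightest read 12.48 and 11.77, a difference of 0.71, while the other 3 differed by -0.96, -1.30 and -2.12, so this gene has no settled direction. A probe annotated to the pseudogene Ndufs5-ps differed by 0.51. The 5 assembly factors, which build the complex without staying in it, had a median of -0.31. Ndufaf1, which binds an early membrane-arm intermediate, had 10.14 in the NKT-labelled library and 10.54 in the CD4-labelled library. Ndufaf3 and Ndufaf4, partners in building the ubiquinone-binding part, differed by -0.36 and -0.31. Ndufaf7, a mitochondrial methyltransferase, had 9.32 and 8.43 and the largest positive difference of these 5, 0.89.

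Complex II, succinate dehydrogenase, was represented by 3 subunits. None of these 3 reached 2-fold, where all named genes had 9.37% higher and 10.3% lower. The median of the 3 subunits was -0.26, and 0.14 over the 2 detected in both libraries. Sdhb, the iron-sulphur subunit, had log2 signals of 10.25 in the NKT-labelled library and 10.52 in the CD4-labelled library, and its second probe had 9.78 and 10.35. Both probes were thus lower in the NKT-labelled library. The membrane anchors split: Sdhc had 11.74 and 11.20, a difference of 0.54, and Sdhd had 7.58, below the detection level, in the NKT-labelled library against 8.58 in the other, at least 1.68-fold lower. Sdha, the flavoprotein, was not analysed here.

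**Figure D2:**
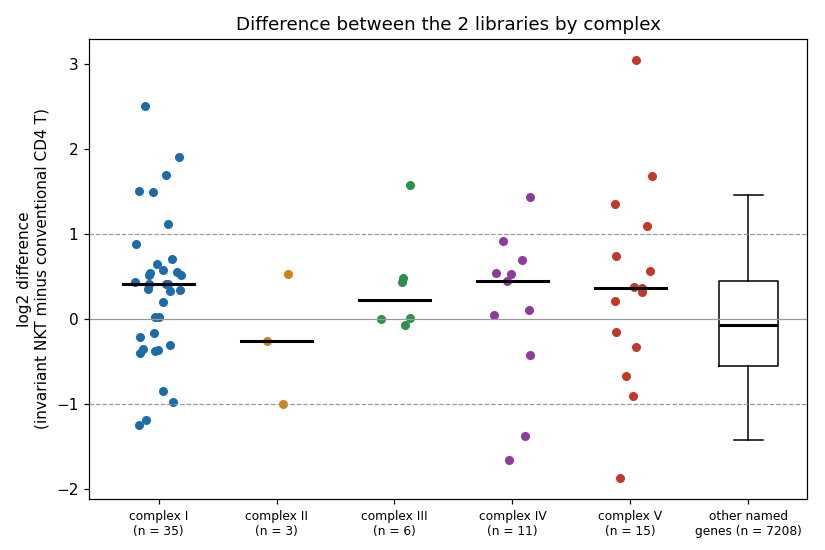
Log2 difference (vertical axis) of each member detected in 1 or both libraries, by complex, with the median as a bar, beside a box of the other named genes (median, quartiles and 5th to 95th percentile whiskers). Dashed lines mark 2-fold; points are measured differences, and genes detected in 1 library are counted by their bound in the text. Medians of complexes I, III, IV and V lie between 0.22 and 0.45 and that of complex II at -0.26.

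Complex III, the cytochrome bc1 complex, had 6 genes with a median of 0.22, and 1 stood out. Uqcrh, the hinge protein beside cytochrome c1, had log2 signals of 14.65 in the NKT-labelled library and 13.07 in the CD4-labelled library, a difference of 1.58. The core proteins differed little, with 12.54 and 12.05 for Uqcrc1 and 13.56 and 13.63 for Uqcrc2. Uqcr11 had 12.61 in the NKT-labelled library and 12.18 in the other. Uqcr10 was nearly equal at both of its probes, which differed by 0.01 and -0.03. Uqcrb, a small subunit near the ubiquinone site, also differed by 0.01.

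Complex IV, cytochrome c oxidase, had a median of 0.45 over 11 detected genes. It had 1 gene 2-fold or more higher and 2 lower, where all named genes had 9.37% higher and 10.3% lower. Cox6a1, the form of subunit 6A found outside heart and skeletal muscle, had log2 signals of 14.14 in the NKT-labelled library and 12.70 in the CD4-labelled library. Its second probe had 13.67 and 12.19, so the probes agreed within 0.04, at 1.44 and 1.48. Cox6c went the other way, with 11.15 in the NKT-labelled library and 12.81 in the CD4-labelled library. Cox7a2 is the form of subunit 7A outside muscle. It had 7.75, below the detection level, in the NKT-labelled library against 9.12 in the other, at least 2.44-fold lower. With background subtracted its measured difference was -3.30, but that rests on an undetected value, and only the bound gives its size. The muscle form Cox7a1 was detected in neither. Cox7c, another small subunit, had 13.28 and 12.35, just under 2-fold higher. Cox6b1, on the intermembrane space side, had 13.90 and 13.37 at one probe and 12.98 and 12.17 at the other. Ndufa4 (13.66 and 12.96), Cox5b (14.02 and 13.47) and Cox8a (14.18 and 13.73) differed by 0.45 to 0.69. Cox5a and Cox7a2l, a factor that joins complexes III and IV, were nearly equal, at 0.05 and 0.10. Cox4i1, the largest nuclear subunit, had 13.82 in the NKT-labelled library and 14.24 in the CD4-labelled library.

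Complex V, the ATP synthase, had the widest spread, from -1.87 to 3.05, with a median of 0.36 over 15 genes. It had 3 genes 2-fold or more higher and 1 lower, where all named genes had 9.37% higher and 10.3% lower. Atp5l, subunit g of the membrane part, had log2 signals of 12.45 in the NKT-labelled library and 9.39 in the CD4-labelled library, 8.30-fold higher and the largest difference of any member. In the same part, Atp5j2 (subunit f) had 14.40 and 13.83, while Atp5mpl, a small proteolipid, had 13.45 and 14.36. Atp5a1, the alpha subunit, had 8.27 in the NKT-labelled library and 10.14 in the CD4-labelled library, 3.66-fold lower, or a log2 difference of -2.85 with background subtracted. Its partner Atp5b, the catalytic beta subunit that alternates with alpha in the F1 head, had 15.39 and 15.08. The central stalk also varied: Atp5c1 (gamma) differed by -0.32 and Atp5d (delta) by 0.38. Atp5e (epsilon) had 7.78, below the detection level, in the NKT-labelled library and 8.45 in the other.

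The peripheral stalk, which holds the F1 head still while the rotor turns, had the highest median of the 4 groups of ATP synthase subunits, 1.23 over 4 genes. Atp5j, coupling factor 6, had 13.95 in the NKT-labelled library and 12.26 in the CD4-labelled library, and 10.002 and 8.71 at its second probe. Both probes were 2-fold or more higher, at 1.68 and 1.29. Atp5pb, the b subunit, had 12.03 and 10.68, a difference of 1.36. Atp5o, the OSCP subunit that caps the head, was at 8.76 in the NKT-labelled library and at 7.67, below the detection level, in the other, at least 1.91-fold higher. Atp5h (subunit d) was the exception, with 11.78 and 11.92. The c-ring genes Atp5g1, Atp5g2 and Atp5g3 encode the same mature protein, and all 3 were higher in the NKT-labelled library, by 0.74, 0.22 and 0.36.

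**Figure D3:**
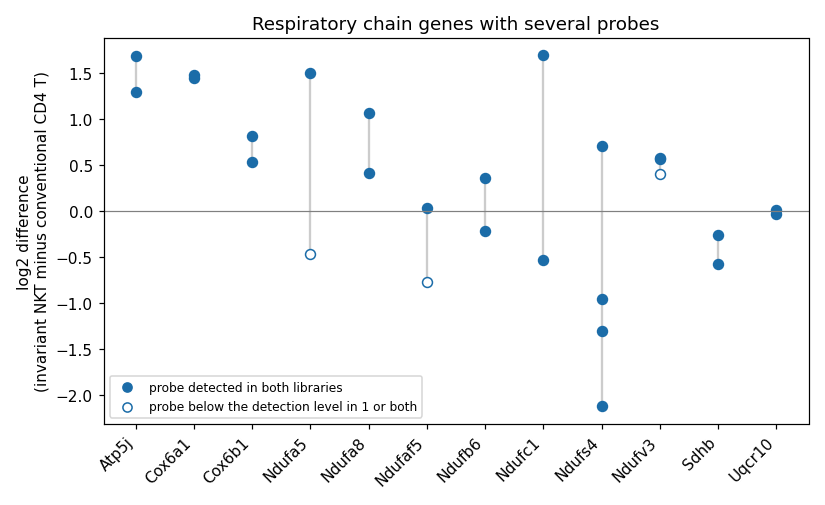
Log2 difference (vertical axis) of every probe of the 12 members with several probes. Filled points are probes detected in both libraries, and open points lie below the detection level in 1 or both. The probes of Cox6a1, Ndufv3 and Uqcr10 lie almost on each other, while those of Ndufs4 and Ndufc1 lie more than 2 log2 units apart.

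How far a single probe can be trusted differs between members. Of the 10 members with 2 or more probes detected in both libraries, the 2 brightest shared their sign in 6 and differed by more than 1 in 2, Ndufc1 and Ndufs4. The Ndufa8 probes differed by 0.42 and 1.07, and those of Ndufb6 by 0.36 and -0.22. Over all 1436 such genes, 68.2% shared their sign and 20.0% differed by more than 1. Of the 11 members 2-fold or more higher, 7 rest on 1 probe, and Cox6a1 and Atp5j are 2-fold or more higher at both probes. All 4 lower members rest on 1 probe. RefSeq lists pseudogenes named after 8 members, among them 4 of the 11 higher ones: Atp5l, Atp5pb, Ndufa12 and Uqcrh. Whether these probes also read the copies was not tested.

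The differences also varied with probe brightness, a split made after the values were seen. The 39 members with a mean log2 signal of 12 or more had a median difference of 0.42, and 31 of them were higher in the NKT-labelled library. None of these 39 was 2-fold or more lower and 4 were higher. For the other 911 named genes of that brightness the median was -0.07, with 44.8% higher. Of those 911, 79 were 2-fold or more higher and 76 lower. Under a mean log2 signal of 12 the 25 members detected in both libraries had a median of 0.22, against -0.06 for the other genes there. Of the 31 members detected there in 1 or both, 7 were 2-fold or more higher and 4 lower, against 592 and 666 of 6297 other genes. Atp5l and Ndufc2 are among these 7, with means between 10 and 12, a range not summarised apart. Below a mean log2 signal of 10 the 8 members detected in both libraries had a median of -0.18, against -0.07 for the other genes there. Another 6 members of that brightness were detected in 1 library, 5 of them in the CD4-labelled one, so the detection rule itself sets their direction. Atp5a1 and Ndufb10, both lower, and Ndufb7, higher, are also under a mean log2 signal of 10, though detected in both libraries. The values of such dim members still include background signal.

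**Figure D4:**
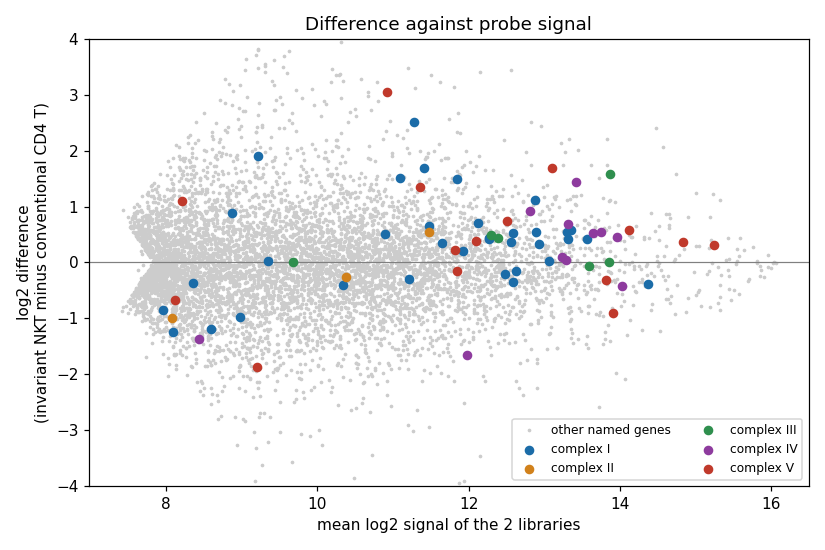
Log2 difference (vertical axis) against the mean log2 signal of both libraries (horizontal axis) for members, coloured by complex, and other named genes in grey. The axis ends at 4 log2 units, beyond which 36 other genes lie and 0 members. Members at or above a signal of 12 sit mostly above the line at 0, with a median of 0.42. Members detected in both libraries had a median of 0.22 under 12 and of -0.18 under 10.

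Genes that serve the chain without belonging to it, from lists drawn up with earlier results known, had medians between -0.44 and 0.16. Of the assembly factors outside the members, 26 were detected, with a median of -0.15. Of these, 2 were 2-fold or more higher and 1 lower, where all named genes had 9.37% higher and 10.3% lower. Cox17, the copper chaperone of complex IV, had log2 signals of 13.09 in the NKT-labelled library and 11.19 in the CD4-labelled library, 3.73-fold higher. Coa3, another complex IV factor, had 12.69 and 11.52. Sdhaf2, which helps attach the flavin of complex II, had 9.25 and 10.34. Cox19, a second copper-handling factor, differed by 0.76 and Cox18, which inserts a complex IV subunit into the membrane, by -0.73.

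Regulators of mitochondrial gene expression had a median of -0.24 over 10 genes. None reached 2-fold, where all named genes had 9.37% higher and 10.3% lower, and 10 genes are too few to set them apart by that. Nrf1 and Gabpa, whose products bind the promoter motifs searched, differed by -0.01 and 0.04. Tfam, which packages and transcribes mitochondrial DNA, had 10.18 and 11.09, and its second probe had 10.08 and 10.82. Tfb1m differed by -0.98, and Esrra, an orphan nuclear receptor of oxidative genes, by 0.97, both just inside 2-fold. Of the 11 members 2-fold or more higher, all with a promoter window, 5 held the GABP core and 2 the NRF1 core. Of the 4 lower members 2 had a window, with 0 motifs, and of the 51 other members with a window 11 held the GABP core and 8 the NRF1 core.

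Electron carriers and donors had a median of 0.16 over 8 genes, and 0.10 over the 7 detected in both libraries. Etfb, a chain of the electron transfer flavoprotein, had 12.30 in the NKT-labelled library and 10.998 in the CD4-labelled library, and its second probe had a difference of 0.65. Gpd2, the mitochondrial glycerol phosphate dehydrogenase, differed by 0.71, Cyc1, cytochrome c1, by 0.45, and Atpif1, the inhibitor of the ATP synthase, by -0.43. Coenzyme Q synthesis had 7 detected genes with a median of -0.44. Coq2, the transferase that joins ring and tail, had 9.83 and 11.45, and Coq10b, a coenzyme Q binding protein, had 11.35 and 9.16 at its brightest probe, with other probes at 0.50 and 0.37. In membrane exchange, with a median of -0.33 over 5 genes, the phosphate carrier Slc25a3 had 11.73 in the NKT-labelled library and 12.75 in the CD4-labelled library, with its second probe at -1.03. Vdac2, an outer membrane channel, differed by -0.99, and Slc25a5, an ADP/ATP carrier, by -0.07.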

How the data were processed

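Each group is 1 Illumina bead array of labelled cRNA made from 0.55 ug of total RNA, per the labels' protocols, with GenomeStudio 2009.2 named by the submitters' processing notes. The authors deposited non-normalized intensity values of 25697 probes with a detection p-value for each, per the file headers, and log2 values of 11866 of these probes. The sorted deposited log2 columns were equal within 0.00025, as quantile normalisation leaves them, and background had not been subtracted. The normalisation and the probe filter are not given in the sources used here. Unmapped sample columns numbered 0.

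The value table was the main source. Platform annotation gave 11155 probes 1 gene symbol, 0 several and 711 none. The identifiers of 11149 were found in RefSeq for GRCm38.p6, and no probe coordinates are given. The brightest probe by mean log2 signal stood for a gene. The detection level of 7.83 came from the library labelled conventional CD4 T and was applied to both. A gene detected in 1 library got a bound against the higher of that level and its own dim value, and a gene detected in neither got no fold. A gene counted as detected where any of its probes was. Genes were called at 2-fold, since 1 array per group allows no test. The number of arrays limits the precision. Every member could be named; genes outside were up to 3 highest and 3 lowest of each list, besides Nrf1, named for its motif after its value was seen. The members and lists were chosen with earlier results of these data known. Alternatives were neqc of limma 3.58.1 (R 4.3.3, offset 16), background subtraction, other detection rules, the mean of probes, centring and a 1.5-fold limit. Analyses used Python 3.11.15 and pandas 2.3.3.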

Additional observations from a re-analysis of the deposited data

How the results depend on the processing

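With the value table, the members' median difference lay between 0.35 and 0.43 under background subtraction, a detection p under 0.05, no detection filter, the mean of probes, centring, without genes whose probes disagree, and over genes detected in both libraries, the last chosen after seeing the data. The ranges were 0.34 to 0.47 for complex I, 0.22 to 0.28 for III, 0.32 to 0.51 for IV and 0.36 to 0.42 for V. Complex II, with 3 genes, lay between -0.42 and 0.14 and had no settled sign. Members 2-fold or more higher numbered 9 to 13. Those lower became 9 with background subtracted, where 1175 of all genes were higher and 1371 lower, against 682 and 746. At 1.5-fold 18 members were higher and 9 lower. With the mean of probes Ndufa5 and Ndufc1 differed by 0.51 and 0.58. With the non-normalized intensities 0 members were 2-fold higher and 0 lower, as for all genes. There Ndufa5 (-0.0337), Ndufa12 (-0.0283) and Ndufc1 (-0.0217) were slightly below 0. These values are small beside the SD of 0.11 of the log2 ratios of all probes, so they show no opposite direction. For Ndufc1 the other probe was then the brighter, and the probe reported above had -0.0562. The median difference there was 0.0112 for all members, 0.0112 for complex I, -0.0175 for II, -0.0288 for III, 0.00681 for IV and 0.0213 for V. That table's 2 columns are nearly equal, with log2 ratios of members from -0.37 to 0.19; which table holds the invariant NKT sample was not tested. No paired analysis was possible because each group has 1 array. Background subtraction moved Ndufb10 to -2.33, Cox7a2 to -3.30, Atp5a1 to -2.85 and Ndufb7 to 2.90. For Cox7a2 this rests on a value below the detection level in the NKT-labelled library.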
